A study of Mus musculus with 11 samples.

Results

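The genes described are the nuclear-encoded subunits and assembly factors of respiratory complex I, the NADH dehydrogenase of the mitochondrial inner membrane. They were chosen by symbol alone, as the protein-coding Ndufa, Ndufab1, Ndufb, Ndufc, Ndufs, Ndufv and Ndufaf genes of the mouse. This gave 45 genes of 37583 gene IDs counted, of which 37 were subunits by name and 8 were assembly factors. RNA was sequenced from 5 tafazzin knockout (Taz KO) clones and 6 wild-type (WT) clones, and the comparison of KO with WT asks which transcripts differ when tafazzin is missing. Both groups were granulocyte-monocyte progenitor (GMP) lines from the fetal liver of C57BL/6 mice at embryonic day 15.5, made by retroviral expression of ER-Hoxb8, a fusion that holds progenitors in an immature, dividing state while estradiol is present. Both were kept in 0.5 uM beta-estradiol and medium conditioned with stem cell factor, and each clone grew from 1 cell. The clones are KO 3H, 3I, 4J, 4K and 4L and WT 1A, 1B, 1C, 2D, 2E and 2F; the meaning of the number in these names is not given. The labels do not say which clones share a mouse, so p-values measure the spread between these clones only.

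Complex I takes electrons from NADH, passes them through iron-sulfur clusters to ubiquinone and pumps protons across the inner membrane. Its peripheral arm has an N module, which oxidises NADH, and a Q module, which reduces ubiquinone, while the P module is the membrane arm that carries the pumps. Assembly factors build and join these modules but are absent from the finished enzyme. Tafazzin remodels cardiolipin, a phospholipid of the inner membrane in which the respiratory complexes sit. The membrane core subunits encoded by the mitochondrial genome were not analysed here, nor was Ndufb1.

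Gene counts totalled 19778119 to 23658158 per library in KO clones and 21966954 to 27431544 in WT clones (two-sided exact permutation p = 0.0303). Taz itself (ENSMUSG00000009995) was at 3.45, 3.31, 3.06, 4.09 and 2.21 CPM (counts scaled to a common library size) in KO clones, against 37.0 to 43.8 CPM in WT clones with a median of 38.4, so it fell in every KO clone (log2 fold change -3.60 ± 0.137, standard error; adjusted p = 4.08e-07). Which part of Taz was deleted is not stated in the labels. Of 13 GMP markers, 0 were called; they summed to 13110 to 20520 CPM in KO clones and 14060 to 22970 CPM in WT clones, mostly Mpo and Ctsg. Others were low or uneven: Csf1r was at 0.128 to 2.18 CPM in KO clones and 0.332 to 3.20 CPM in WT clones, and Elane at 2.26 to 147.3 CPM in KO clones and 23.3 to 825.3 CPM in WT clones. Of the markers of other cells, the 5 of fibroblasts and endothelium summed to 280.5 to 491.6 CPM in KO clones and 157.5 to 500.9 CPM in WT clones, nearly all Pecam1, and the 6 of megakaryocytes, mostly Itga2b, to 120.6 to 243.4 and 131.6 to 250.3 CPM. Those of macrophages (mostly Adgre1) summed to 23.9 to 53.97 CPM in KO clones and 10.15 to 48.3 CPM in WT clones, and those of red cells (mostly Gata1) to 12.2 to 26.75 and 14.6 to 73.4 CPM. Hepatocyte markers, mostly Hnf4a, summed to 1.47 to 7.98 CPM in KO clones and 2.32 to 34.6 CPM in WT clones, and T cell markers, nearly all Lck, to 0.988 to 6.71 and 0.982 to 4.23 CPM. Of the same lists, C1qa, C1qc and Marco of macrophages, Cd3e and Cd2 of T cells, Pax5 of B cells, Hba-a2 of red cells, Ttr of hepatocytes, Cdh5 of endothelium and Col1a1 of fibroblasts were at 0 counts in all 11 clones. The 5 mast cell and basophil markers, mostly Cpa3, summed to 2049 to 4778 CPM in KO clones and 1050 to 3981 CPM in WT clones, with 0 of the 4 tested called. The clone WT 2D stood apart in late neutrophil markers, of which 11 summed to 1546 CPM, against 15.95 to 146.2 CPM in KO clones and 22.1 to 115.6 CPM in the other WT clones. The 7 B cell markers summed to 6.07 to 28.5 CPM in KO clones and 32.8 to 85.6 CPM in WT clones. All 5 of those tested had negative log2 fold changes, and 1, Cd79b, was called (0.610 CPM in KO clones and 8.55 CPM in WT clones on average; adjusted p = 0.0170). Igll1 averaged 0.842 and 10.1 CPM (edgeR adjusted p = 0.0613), and neither Cd79b nor Igll1 overlapped between the groups. Over all genes tested, 2.29% were called as lower and 3.02% were lower without overlap.

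All 45 complex I genes passed the filter on low counts, and none was called as changed in KO clones by edgeR's quasi-likelihood test at an adjusted p under 0.05. Over the 11900 genes tested, 5.05% were called, 2.29% as lower and 2.76% as higher. At an unadjusted p under 0.05, 5 complex I genes were lower in KO clones and 0 were higher, where 20.3% of all genes tested passed, 10.3% as lower and 10.0% as higher. DESeq2 called 2 complex I genes, Ndufv3 and Ndufb3, both as lower, where it called 10.6% of all genes, 5.23% as lower. limma-voom called 0, where it called 5.15% of all genes.

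Fold changes of the 45 genes were small and their intervals narrow. The log2 fold changes of KO over WT ran from -0.36 for Ndufv3 to 0.18 for Ndufaf4, with a median of -0.039 (all genes tested, -0.0059). For all 45 genes the 95% interval lay within 1.5-fold in either direction, and for 32 genes it lay within 1.2-fold. In the same range of mean CPM, 83.6% of 8259 genes had an interval within 1.5-fold and 50.2% within 1.2-fold. Of the 45 log2 fold changes, 31 were negative (68.9%) and 14 positive. Of all genes tested 51.6% were negative, and of those in the same range of CPM 52.5%. After a correction for GC content and transcript length, 23 of the 45 were negative and the median was -0.0048 (all genes tested, -0.0098). The median transcript length of the complex I genes was 983 bases, against 3056 bases in genes of the same range of CPM. Their median GC content was 51.5%, against 50.0%. The part of length and of GC content in the fold changes was not tested separately.

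**Figure D1:**
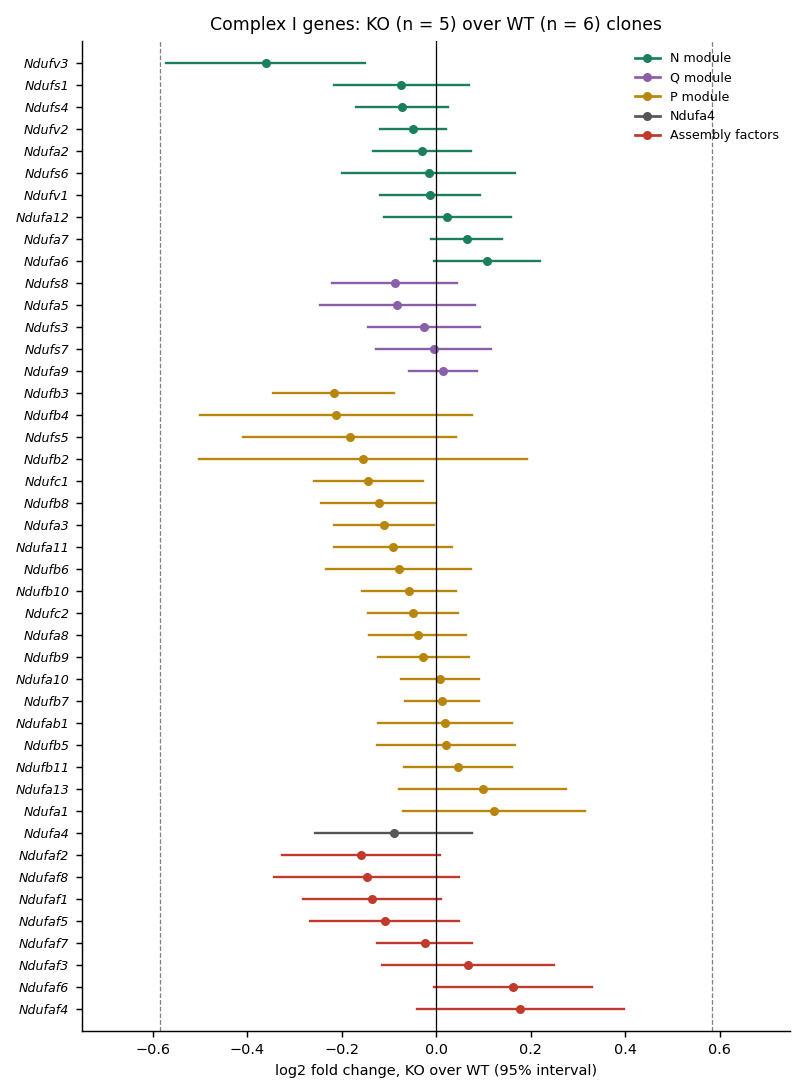
Log2 fold change of KO over WT clones for 44 of the 45 genes, grouped by role; points are estimates, lines are 95% intervals, and dashed lines mark 1.5-fold. Every interval shown lies between the dashed lines, and those of Ndufv3, Ndufb3, Ndufc1, Ndufa3 and Ndufb8 lie below 0.

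The N module held 10 of the genes, their median log2 fold change was -0.023, and 0 were called. Ndufv3, an accessory subunit at the tip of the peripheral arm, was furthest from 0 of all 45 genes. It had 49.3, 49.3, 55.8, 44.5 and 59.3 CPM in the KO clones, in the order of their names, against 55.4 to 76.75 CPM in WT clones with a median of 66.8. The ranges overlapped through KO 4J, KO 4L and WT 2E, and KO 4K was the lowest of the 11 clones. The fold was 0.779, a log2 fold change of -0.36 ± 0.0954 (95% interval -0.57 to -0.15; adjusted p = 0.0555), just outside the threshold. The call turned on the settings: Ndufv3 was called by DESeq2 (adjusted p = 0.00721), with a stricter filter (0.0438) and without WT 2E (0.0310). It was also called with the number in the clone names as a random block (0.00787), and its adjusted p ran from 0.00721 to 0.2945 over all 28 alternatives. Ndufv3 (ENSMUSG00000024038) lies on chromosome 17 at 31520115 to 31531331, plus strand, in GRCm38, and counts per gene do not separate its splice forms.

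Other subunits of the N module stayed closer to 0. Ndufv1, which binds NADH and the flavin, averaged 150.1 ± 6.59 CPM in KO clones and 151.5 ± 9.50 CPM in WT clones, a log2 fold change of -0.013 (95% interval -0.12 to 0.093). Ndufs1, the largest iron-sulfur subunit, averaged 195.6 ± 8.17 CPM in KO clones and 205.9 ± 20.3 CPM in WT clones, with an interval of -0.22 to 0.069. Both intervals include 0. In the positive direction, Ndufa6, a small accessory subunit of the LYR family, had 82.4, 85.8, 93.6, 80.9 and 81.4 CPM in KO clones, against 73.2 to 84.7 CPM in WT clones with a median of 79.1. Its ranges overlapped, with KO 4J highest and WT 2D lowest (log2 fold change 0.11 ± 0.0511; adjusted p = 0.269). Ndufa7, also an accessory subunit, had 70.8, 67.8, 75.1, 70.7 and 67.4 CPM in KO clones, against 65.9 to 69.0 CPM in WT clones with a median of 67.2 (0.064 ± 0.0338; adjusted p = 0.317). For Ndufa7 too KO 4J was the highest clone and WT 2D the lowest.

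The Q module, where ubiquinone is reduced, had the narrowest range of the modules: its 6 log2 fold changes ran from -0.088 for Ndufs8 to 0.015 for Ndufa9, and all 6 intervals lay within 1.2-fold. Ndufa9, an accessory subunit next to the ubiquinone site, averaged 162.4 ± 6.64 CPM in KO clones and 160.8 ± 3.61 CPM in WT clones (interval of the log2 fold change -0.057 to 0.087). Ndufs8, an iron-sulfur subunit, averaged 91.9 ± 7.95 CPM in KO clones and 97.7 ± 4.95 CPM in WT clones (interval -0.22 to 0.044). Ndufs3 had 27.03 RPKM (CPM per kilobase of transcript) in KO clones and 27.53 RPKM in WT clones, the lowest level per length in the Q module, but 75.7% of its transcript has a near-identical copy elsewhere in the genome, which can lower its count.

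The P module, the membrane arm, had 20 genes with a median log2 fold change of -0.053; 13 were negative, 7 positive and 0 called. Of the 5 complex I genes with an unadjusted p under 0.05, 4 belong to it: Ndufb3, Ndufc1, Ndufa3 and Ndufb8. Ndufb3, an accessory subunit of the membrane arm, was the 1 gene of the 45 whose groups did not overlap; among all genes tested this held for 5.99%, 3.02% as lower and 2.97% as higher. It had 46.5, 43.6, 45.0, 41.2 and 43.7 CPM in KO clones, against 47.1 to 58.6 CPM in WT clones with a median of 50.65. WT 2D was above the other WT clones, and KO 3H lay just under WT 1C. The fold was 0.860, a log2 fold change of -0.22 ± 0.0585 (95% interval -0.35 to -0.088; adjusted p = 0.0599). Ndufb3 was called by DESeq2 (adjusted p = 0.0117), with a stricter filter (0.0434) and without WT 2D (0.0462). It was also called with the number in the clone names as a random block (0.00971), and its adjusted p reached 0.498 over the 28 alternatives. It lies on chromosome 1 at 58586384 to 58595964, plus strand, in GRCm38; 37.0% of its transcript matches a copy, Gm45930, that was not analysed here.

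Ndufc1, a small subunit with 1 membrane span, had 32.4, 32.8, 35.1, 30.8 and 35.4 CPM in KO clones, against 34.8 to 40.3 CPM in WT clones with a median of 36.3 (log2 fold change -0.14 ± 0.0524; adjusted p = 0.149). KO 4J and KO 4L reached into the WT range. Ndufa3, an accessory subunit of the membrane arm, had 68.1, 66.9, 74.3, 75.2 and 77.6 CPM in KO clones, against 71.7 to 80.7 CPM in WT clones with a median of 79.1 (-0.11 ± 0.0481; adjusted p = 0.231). Here the overlap came from WT 2D, the lowest WT clone. Ndufb8, from the far end of the membrane arm, had 89.3, 85.0, 95.3, 83.8 and 97.2 CPM in KO clones, against 88.6 to 104.8 CPM in WT clones with a median of 98.4 (-0.12 ± 0.0549; adjusted p = 0.244). KO 3H, 4J and 4L lay inside the WT range. On the other side, Ndufa1, an X-linked subunit needed early in membrane-arm assembly, had 53.3, 52.6, 50.9, 57.1 and 51.9 CPM in KO clones, against 39.7 to 55.6 CPM in WT clones with a median of 50.7 (0.12 ± 0.0871; adjusted p = 0.471). The low WT values of Ndufa1 were those of WT 1A and WT 2D.

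The widest intervals of the P module were those of Ndufb2, Ndufb4 and Ndufs5. Ndufb2 had an interval of -0.50 to 0.19, Ndufb4 one of -0.50 to 0.077 and Ndufs5 one of -0.41 to 0.043. Counts of Ndufb4 were 141 to 281 per clone and those of Ndufs5 were 125 to 228. Of the transcript of Ndufb4, 40.2% has a near-identical copy elsewhere, and of that of Ndufs5, 46.9%; the copies themselves collected at most 8 counts per clone. In all, 7 of the 45 genes have such a copy for more than 20% of their transcript, among them Ndufa12, Ndufb11 and Ndufs6. Exons of 13 of the 45 genes overlap a gene on the opposite strand, to the greatest extent in Ndufb6 (39.0%) and Ndufa13 (29.98%), and strand was ignored in counting.

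Ndufa4, long listed as a complex I subunit and now known as part of cytochrome c oxidase, had the highest level per length of the 45 genes. It had 256.3, 292.8, 298.1, 305.9 and 272.0 CPM in KO clones, against 262.9 to 342.2 CPM in WT clones with a median of 307.5. The ranges overlapped through most of their length (log2 fold change -0.090 ± 0.0753; adjusted p = 0.551).

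Assembly factors were few in number and spread more widely around 0 than the subunits, with 5 negative and 3 positive log2 fold changes and a median of -0.066; 0 were called. Their median absolute log2 fold change was 0.14, against 0.064 in the 37 subunits, and 2 of 8 intervals (25%) lay within 1.2-fold, against 30 of 37 (81.1%). The median half-width of their intervals was also larger, 0.17 against 0.12, and its part in the wider spread was not tested. Over all genes tested the median absolute log2 fold change was 0.11, and 38.5% of intervals lay within 1.2-fold. In genes of the same range of CPM these were 0.092 and 50.2%. Their median level per length was also lower: 19.4 RPKM in KO clones and 19.1 RPKM in WT clones, against 94.4 and 94.3 RPKM in the P module. Single subunits were lower still. In WT clones Ndufb2, Ndufab1, Ndufb4 and Ndufs5 had 5.95, 5.75, 10.0 and 12.0 RPKM, below the lowest assembly factor, Ndufaf3 (12.8 RPKM). Ndufaf2, a relative of the subunit Ndufa12 that holds its place during assembly, had 21.0, 19.2, 19.3, 19.5 and 19.5 CPM in KO clones, against 19.1 to 25.2 CPM in WT clones with a median of 22.0 (log2 fold change -0.16 ± 0.0760; adjusted p = 0.271). KO clones lay at the low end of the WT range, with WT 2F among them and WT 1C just below. Ndufaf1, a member of the complex that assembles the membrane arm, had 30.9, 28.5, 27.8, 27.2 and 29.4 CPM in KO clones, against 28.0 to 36.2 CPM in WT clones with a median of 31.7 (-0.14 ± 0.0664; adjusted p = 0.280).

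The 2 assembly factors of smallest p in the positive direction were Ndufaf6 and Ndufaf4. Ndufaf6, an early factor for the membrane arm, had 20.7, 21.9, 21.6, 18.6 and 19.6 CPM in KO clones, against 16.96 to 21.9 CPM in WT clones with a median of 17.7 (log2 fold change 0.16 ± 0.0758; adjusted p = 0.259). All KO clones were above the WT clones other than WT 2D, and without WT 2D Ndufaf6 was called as higher (0.22; adjusted p = 0.0484; 0.0484 to 0.653 over the 28 alternatives). Ndufaf4, which acts with Ndufaf3 on early peripheral-arm intermediates, had 69.6, 65.0, 69.1, 62.3 and 57.1 CPM in KO clones, against 45.9 to 70.6 CPM in WT clones with a median of 55.7 (0.18 ± 0.0998; adjusted p = 0.350). WT 2D was again the highest clone. Its partner Ndufaf3 averaged 13.5 RPKM in KO clones and 12.8 RPKM in WT clones (interval of the log2 fold change -0.11 to 0.25). Ndufaf5 and Ndufaf7, enzymes that modify subunits of the Q module, and Ndufaf8, the partner of Ndufaf5, had intervals of -0.27 to 0.049, -0.13 to 0.077 and -0.34 to 0.049.

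**Figure D2:**
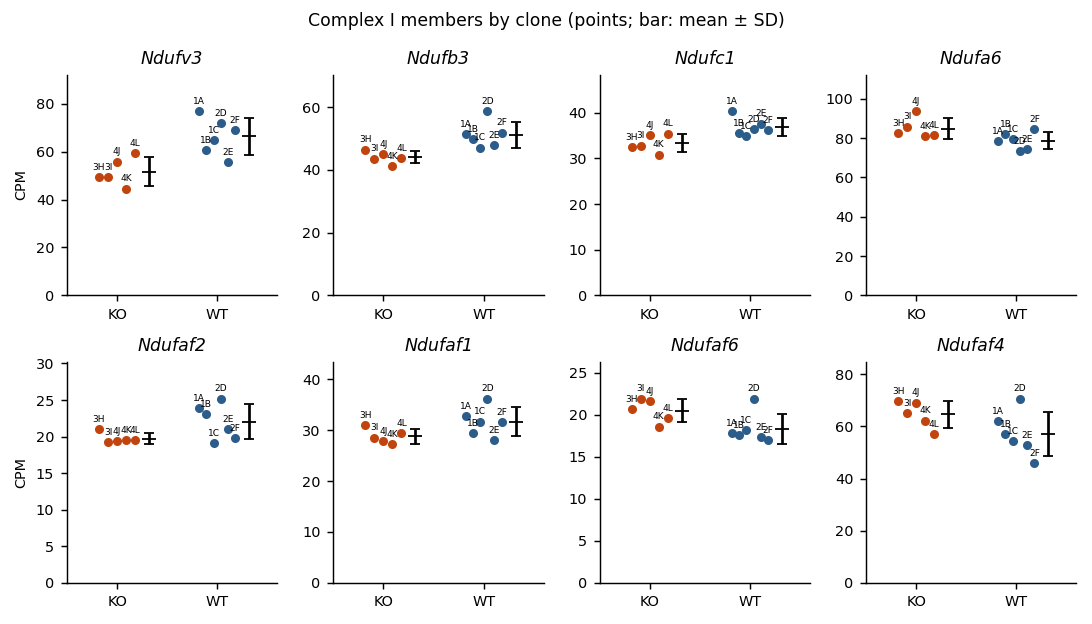
CPM in each clone for 8 complex I genes, with KO clones on the left and WT clones on the right of each panel; the bar beside each group is the mean ± SD (n = 5 and 6). Ndufb3 is the panel in which no KO clone reaches the WT clones, and WT 2D is the highest clone for Ndufb3, Ndufaf2, Ndufaf1 and Ndufaf4.

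Levels per transcript length were close in both genotypes. In the N module the median was 88.5 RPKM in KO clones and 89.4 RPKM in WT clones, and in the Q module 88.9 and 91.9 RPKM. Within the P module, levels ran from 5.34 RPKM for Ndufb2 to 166.5 RPKM for Ndufc2 in KO clones, and from 5.75 RPKM for Ndufab1 to 172.2 RPKM for Ndufc2 in WT clones. The low values of Ndufb2 and Ndufab1, the mitochondrial acyl carrier protein, were divided by annotated transcripts of 4371 and 3479 bases, far over the median of 983 bases. Among clones of 1 genotype the complex I genes varied little. On CPM from library totals without TMM scaling, the median coefficient of variation was 5.53% in KO clones and 6.97% in WT clones. In 8261 genes of the same levels it was 6.86% and 9.01%. On TMM-scaled CPM the assembly factors had a median of 4.43% in KO clones and 10.4% in WT clones. The N, Q and P modules had 6.25, 5.21 and 5.56% in KO clones and 5.32, 5.10 and 6.77% in WT clones.

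**Figure D3:**
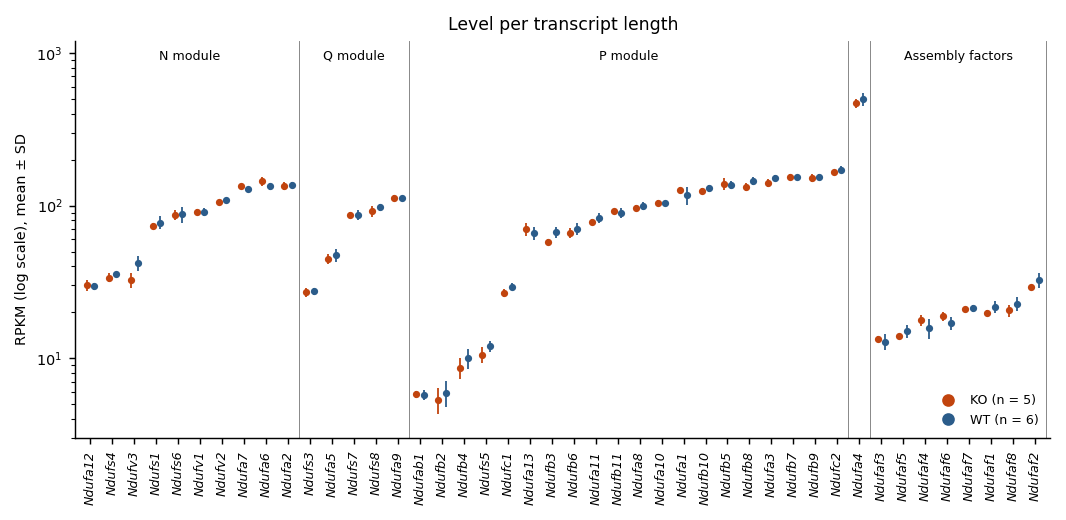
RPKM (log axis) of 44 of the 45 genes, as mean ± SD over KO clones (left point of each pair, n = 5) and WT clones (right point, n = 6), grouped by role. Ndufa4 stands highest, the assembly factors lie between 12.8 and 32.5 RPKM, and the points of a pair lie close together.

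Summed over the 37 subunits, Ndufa4 included, complex I transcripts made up 3345, 3281, 3482, 3230 and 3420 CPM in the KO clones, in the order of their names, against 3376 to 3502 CPM in WT clones with a median of 3436. The means were 3352 ± 102 CPM in KO clones and 3437 ± 43.7 CPM in WT clones (SD). KO 4J and KO 4L lay within the WT range and KO 3H, 3I and 4K below it. The 8 assembly factors summed to 222.6 ± 6.2 CPM in KO clones and 220.8 ± 20.6 CPM in WT clones. Each library pools a culture, so fewer cells with a transcript and less of it per cell cannot be told apart.

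A few clones held many of the highest and lowest values. WT 2D was the highest of the 11 clones for 20 of 45 genes (44.4%), including Ndufv1, Ndufv2, Ndufs1, Ndufs7 and Ndufs8, where it was highest for 20.8% of all genes tested. KO 4K was the lowest clone for 14 of 45 genes (31.1%), against 11.9% of all genes tested, and KO 4J was highest for 9 (20%) and lowest for 0, against 6.26% and 7.08% of all genes tested. The median deviation of the 45 genes from their mean over all clones ran from -0.084 in KO 4K to 0.11 in WT 2D on the log2 scale. WT 2D was also the lowest clone for Ndufa6, Ndufa7 and Ndufb11. Without WT 2D the median log2 fold change was -0.027 and 28 of 45 genes were negative; without KO 4K they were -0.036 and 28, and without KO 4J -0.061 and 36.

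**Figure D4:**
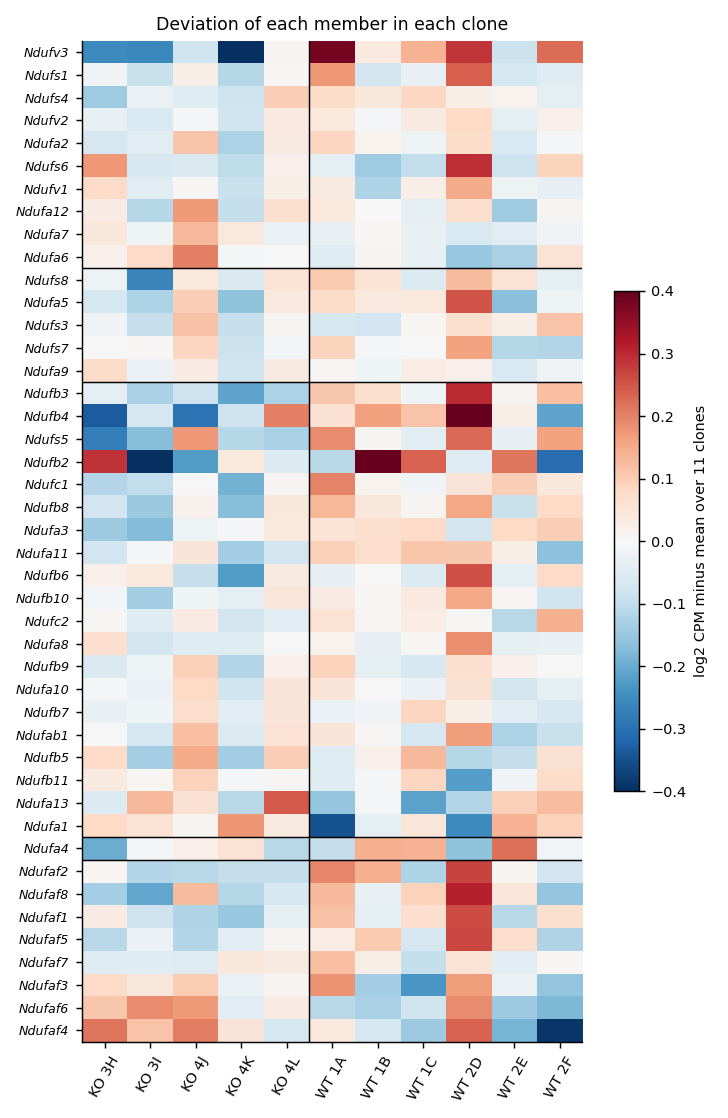
Log2 CPM of 44 of the 45 genes in each clone minus its mean over the 11 clones, KO clones on the left; horizontal lines separate the N module, Q module, P module, Ndufa4 and the assembly factors, and colours are capped at 0.4 in either direction. The WT 2D column is mostly red (high) and the KO 4K column mostly blue (low).

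Marker levels differed between the same clones. KO 4K had the lowest sum of GMP markers (13110 CPM) and the highest sum of mast cell and basophil markers (4778 CPM) of all clones. KO 3I, the KO clone with the next lowest sum of subunits, had 14260 and 4373 CPM of these markers. WT 2E, the WT clone with the lowest sum of subunits, had 14060 and 3981 CPM. KO 3H differed: its sum of subunits (3345 CPM) was also below the WT range, but it had 19870 and 2049 CPM of these markers. WT 2D had the highest sum of GMP markers (22970 CPM) and the lowest of mast cell and basophil markers (1050 CPM), beside its late neutrophil markers. Within the GMP sum, Mpo was lowest in KO 4K (5347 CPM) and highest in WT 2D (13250 CPM). Kit and Cd34 of the same list went the other way, highest in KO 4K (866.5 and 2209 CPM) and lowest in WT 2D (515 and 1202 CPM). These clones were singled out after their values were seen, and the part of marker levels in the complex I values was not tested.

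**Figure D5:**
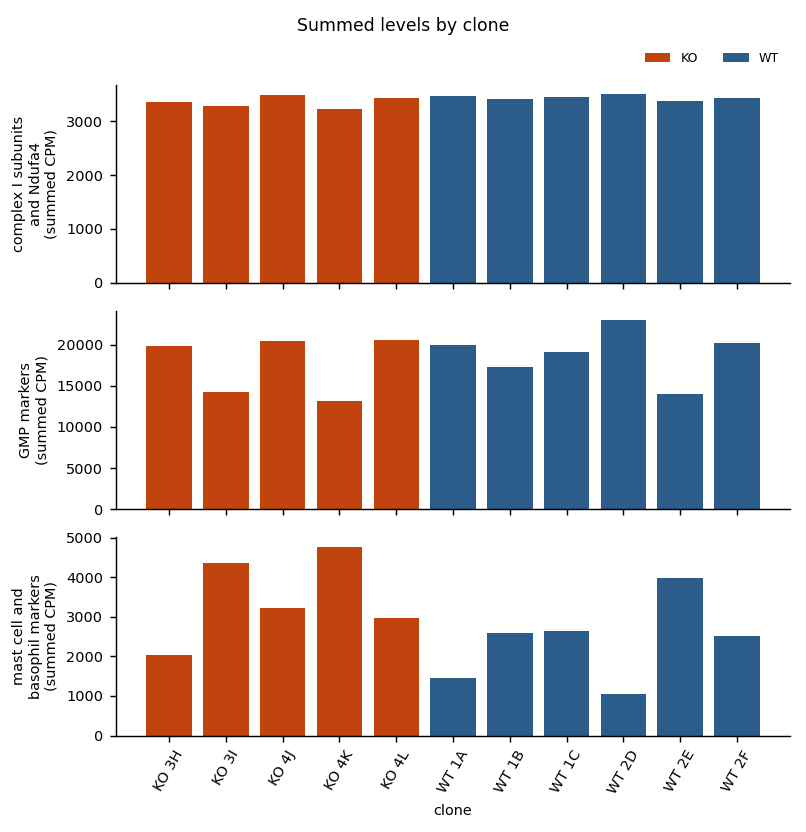
Summed CPM per clone of the 37 complex I subunits including Ndufa4 (top), 13 GMP markers (middle) and 5 mast cell and basophil markers (bottom), with KO clones on the left. Subunit sums stay between 3230 and 3502 CPM, while the mast cell and basophil sums run from 1050 to 4778 CPM.

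Clones of 1 genotype that differ in the number of their name were compared in the same way, since this shows how far complex I genes vary without a change of genotype. For WT 2 against WT 1, 0 of 45 genes were called and 0 had an unadjusted p under 0.05, and log2 differences ran from -0.24 to 0.20. For KO 4 against KO 3, 0 were called and 1, Ndufa3, had an unadjusted p under 0.05 (0.17 ± 0.0581; edgeR adjusted p = 1), with a range of -0.12 to 0.21. Of all 11900 genes, 0 were called in either comparison, and 372 and 161 had an unadjusted p under 0.05. The differences of Ndufv3 were -0.044 ± 0.138 for WT 2 against WT 1 and 0.11 ± 0.155 for KO 4 against KO 3, and those of Ndufb3 were 0.094 ± 0.0798 and -0.056 ± 0.0893.

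Promoters of 40 of the 45 genes were found in the RefSeq table (GRCm38.p6). The windows of Ndufv3 and Ndufb3, the genes of smallest p, are printed from 120 bases before the start to 30 bases from it, 5′ to 3′ on the gene's strand, beside those of Ndufa8 and Ndufa11, which were chosen after their motifs were seen. Capitals mark the letters GCGCNTGCG, a motif of the factor NRF1, which is known for driving respiratory chain genes. They lie at chr17:31519995-31520144 (plus strand), chr1:58586277-58586426 (plus), chr2:36049309-36049458 (minus) and chr17:56717642-56717791 (plus).
Ndufv3: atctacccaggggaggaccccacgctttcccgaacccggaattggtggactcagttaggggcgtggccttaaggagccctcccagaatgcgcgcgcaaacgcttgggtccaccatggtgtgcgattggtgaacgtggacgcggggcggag
Ndufb3: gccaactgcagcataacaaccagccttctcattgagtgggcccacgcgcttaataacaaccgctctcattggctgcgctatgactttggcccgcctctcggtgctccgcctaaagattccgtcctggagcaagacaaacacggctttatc
Ndufa8: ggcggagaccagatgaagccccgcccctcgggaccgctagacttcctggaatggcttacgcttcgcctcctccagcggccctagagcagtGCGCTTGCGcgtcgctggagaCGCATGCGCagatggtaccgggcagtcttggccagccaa
Ndufa11: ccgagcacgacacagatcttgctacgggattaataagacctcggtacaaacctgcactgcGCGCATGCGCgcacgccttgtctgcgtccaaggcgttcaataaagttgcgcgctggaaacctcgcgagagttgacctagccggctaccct
The windows of Ndufv3 and Ndufb3 held none of the searched letters, that of Ndufa8 held 2 NRF1 matches, and in Ndufa11 the letters matched on both strands of 1 overlapping stretch.

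Each promoter was searched on both strands from 250 bases before the start to 50 bases after it, and counted once per motif; the CREB/ATF letters read the same on both strands. NRF1 letters were in 11 of 40 complex I promoters (27.5%), in 7.12% of all 27025 promoters and in 16.1% of those of 8935 tested genes. Letters of YY1 (AAGATGGCG), a factor linked to mitochondrial genes, were in 6 of 40, against 1.64% of all promoters and 3.96% of those of tested genes; they include those of Ndufc1, Ndufs7 and Ndufa9. ETS letters (CCGGAAGT), which GABPA binds, were in 1 complex I promoter (2.5%), against 4.31% of all promoters and 9.96% of those of tested genes. CREB/ATF letters (TGACGTCA) were in 3 (7.5%), against 2.03% and 3.70%, the ERR letters TNAAGGTCA in 1 (2.5%), against 1.43% and 0.81%, and the ATF4-CEBP letters TTGCATCA in 0, against 1.03% and 0.78%. The 11 genes with NRF1 letters ran in log2 fold change from -0.21 (Ndufb4) to 0.18 (Ndufaf4), with Ndufa6 at 0.11 and Ndufa8 at -0.039. A match of letters is a description of the sequence and was not tested as a site.

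Genes around the enzyme, in lists of 16, 13, 13 and 5 tested genes, held 2 calls, where 5.05% of all genes tested were called. Of 16 tested assembly factors outside the Ndufaf series, 1 fell and 0 rose in KO clones, beside 2.29% and 2.76% of all genes tested. This was Aifm1, which brings the import receptor Chchd4 to the inner membrane and is needed for complex I biogenesis in mice. It had 120.7, 108.4, 115.1, 102.4 and 114.6 CPM in KO clones, against 124.8 to 136.3 CPM in WT clones with a median of 131.2, so the groups did not overlap (log2 fold change -0.22 ± 0.0457; adjusted p = 0.0228). The call was lost without KO 3I (adjusted p = 0.0727) and without WT 1C (0.0522). It was also lost with title numbers as set means (0.0556) or summed (0.0765), with the GC content and length correction (0.0694) and without the clones of any 1 title number (0.0940 to 0.308), and the adjusted p ran from 0.000221 to 0.308 over the 28 alternatives. Chchd4 itself averaged 104.8 CPM in KO clones and 103.5 CPM in WT clones, and the partners of Ndufaf1, Ecsit, Acad9, Tmem126b and Tmem186, had log2 fold changes of -0.054, -0.15, -0.078 and 0.099 and adjusted p-values of 0.819, 0.453, 0.583 and 0.155. At an unadjusted p under 0.05, 2 of the 16 were lower (Aifm1 and Dmac1) and 2 higher (Tmem186 and Tmem126a). Of all genes tested, 10.3% passed this limit as lower and 10.0% as higher.

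Of 13 tested regulators of mitochondrial genes, 1 rose and 0 fell, beside 2.76% and 2.29% of all genes tested. Gabpb1, the subunit through which the ETS factor GABPA activates transcription, had 97.0, 106.4, 97.6, 93.2 and 90.9 CPM in KO clones, against 78.05 to 88.5 CPM in WT clones with a median of 83.5. The groups did not overlap (log2 fold change 0.22 ± 0.0484; adjusted p = 0.0307). The call was lost without any 1 of KO 3H, 3I and 4J and WT 1A, 1B and 1C, with adjusted p-values of 0.0606 to 0.0723. It was also lost with no filter (0.0580), with counts summed per title number (0.120), with the GC content and length correction (0.0717) and without the clones of any 1 title number (0.0591 to 0.263); all 28 alternatives gave 0.00112 to 0.263. Pprc1, a coactivator related to Ppargc1a, was at 146.2 to 153.0 CPM in KO clones and 118.1 to 143.0 CPM in WT clones, without overlap (0.18 ± 0.0501; adjusted p = 0.0624). GABPA's own transcript, Gabpa, averaged 125.7 CPM in KO clones and 134.5 CPM in WT clones (-0.097 ± 0.0392; adjusted p = 0.190), and Nrf1 65.3 and 67.1 CPM (adjusted p = 0.558). The coactivator Ppargc1a was at or near 0 counts in all clones and was not tested.

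Neither ubiquinone synthesis nor the supercomplex factors held a call, in 13 and 5 genes. Among the genes that make ubiquinone, the electron acceptor of complex I, the smallest p was that of Coq7, a hydroxylase late in the pathway. It had 27.4, 24.7, 25.8, 23.5 and 26.9 CPM in KO clones, against 25.5 to 35.7 CPM in WT clones with a median of 28.3 (log2 fold change -0.19 ± 0.0830; adjusted p = 0.221). Cox7a2l, of the supercomplex factors, had 80.5, 87.1, 79.0, 87.8 and 83.7 CPM in KO clones, against 60.8 to 81.6 CPM in WT clones with a median of 69.9. Only WT 2F reached into the KO range (0.25 ± 0.0656; adjusted p = 0.0552), and without WT 2F Cox7a2l was called as higher (0.30; adjusted p = 0.0188; 0.00581 to 0.372 over the 28 alternatives). Cox7a2l was also called by DESeq2, with the title number as a random block and with the GC content and length correction. Leaving out the clones of title number 2 called it too, so 5 of the 28 alternatives did.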

How the data were processed

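The authors deposited raw read counts per Ensembl gene for each clone, neither normalised nor pooled; per the labels' protocols, polyA RNA went into strand-specific libraries. The submitters' processing notes name STAR, HTSeq, edgeR and mm9 with no version, and the sources used here do not give the annotation release. Strand was ignored in counting, per the names of the deposited count sets. Rows that name no gene were kept out: reads in no gene were 5.41 to 6.94% and ambiguous reads 2.70 to 2.93% of all these counts. IDs were matched to symbols in GENCODE vM21 (GRCm38), 32860 of 37583 with 99.6% of the counts; this other build gave names, coordinates, lengths, overlaps and copies (BLAST matches of at least 95% identity and 50 bases).

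The comparison of genotypes used the robust quasi-likelihood test of edgeR (TMM, filterByExpr, Benjamini-Hochberg over 11900 genes, threshold 0.05). CPM uses TMM-scaled totals, and RPKM divides CPM by the length of the principal transcript. The coefficients of variation other than those by role used totals without this scaling. So did the range of CPM in which transcript lengths and GC contents were compared. Errors of fold changes are standard errors, and 95% intervals are for single genes. Alternatives were other normalisations, filters and tools, the title number, equal depth, a GC content and length correction, and leaving out clones. Values in every clone are given for the 3 subunits and 2 assembly factors of smallest p in each direction, the subunit and assembly factor of highest RPKM, and, from other lists, called genes or the gene of smallest p; Ndufa3 and Ndufb8 were added after their values were seen, and 1 gene is counted but not reported here by name. Members and lists were chosen with earlier results of these data known, so lists are described and not tested. Software was edgeR 4.0.16 and limma 3.58.1 in R 4.3.3, DESeq2 1.42.0, and Python 3.11.15 with pandas 2.3.3 and matplotlib 3.10.9.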

Additional observations from a re-analysis of the deposited data

Results flagged for a closer look

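In 5 of 90 groups (45 genes in KO and in WT clones), 1 clone lay far from the others of its genotype by Dixon's criterion, which chance alone meets in about 1 group in 20. In WT 2D, Ndufa3 was low (71.68 CPM, against 78.4 to 80.7 CPM in the other WT clones), Ndufaf6 was high (21.91 CPM, against 16.96 to 18.2) and Ndufa8 was high (95.83 CPM, against 82.1 to 85.0). Ndufaf2 was high in KO 3H (20.98 CPM, against 19.2 to 19.5 in the other KO clones). Ndufa11 was low in WT 2F (39.23 CPM, against 44.65 to 47.4 in the other WT clones). Of the 5 values, 3 belong to WT 2D.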

How the results depend on the processing

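Complex I genes called as lower numbered 0 as reported, 2 with a stricter filter (mean of at least 5 CPM), 2 with DESeq2 (Ndufv3 and Ndufb3 in both) and 3 with the title number as a random block (Ndufv3, Ndufb3 and Ndufc1; correlation within a number -0.215). Each number belongs to 1 genotype, so a negative correlation within a number shrinks the standard errors of KO against WT in that setting. Leaving out 1 clone gave 0 to 1 lower, Ndufb3 without WT 2D and Ndufv3 without WT 2E, and 0 to 1 higher, Ndufaf6 without WT 2D; the other settings gave 0. Over all settings Ndufv3 ran from -0.42 to -0.31 and Ndufb3 from -0.26 to -0.17. No gene whose values are given in every clone changed sign. Other complex I genes close to 0 did so in some of the 28 alternatives, and none of these was called. Among them were Ndufs7 (8 alternatives), Ndufs6 (7), Ndufv1 and Ndufa10 (5 each) and Ndufb5 (4). Ndufa12, Ndufab1 and Ndufb7 did so in 3 each, Ndufs3 in 2, and Ndufa9 and Ndufa8 in 1 each. Genes called of all those tested numbered 601 as reported, 329 with no filter, 1261 with DESeq2, 1983 with the random block, 307 with set means and 197 with counts summed per title number. They numbered 92, 32, 45 and 296 without the clones of number 3, 4, 1 and 2, and 240 to 739 without 1 clone; leaving out clones lowers the number of samples, and the other causes were not tested. Aifm1 and Gabpb1 kept their direction in all 28 alternatives and were called in 19 and 15 of them. No paired analysis was possible because KO and WT clones share no number in their names. Ndufb4 and Ndufs5 had 125 to 281 counts per clone, and the part of depth in their intervals was not tested.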
